A study of Drosophila melanogaster with 4 samples.

Results

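Histone variants and the chaperones that deposit them were followed through the cell classes of overgrown Drosophila melanogaster testes. The 10 genes were chosen by symbol from the deposited table of unique molecular identifier (UMI) counts, and 10 of 10 were among its 17558 features. They are His2Av, His3.3A, His3.3B, BigH1, Hira, yem, XNP, asf1, Caf1-180 and Caf1-105. Testis tumors had been produced by overexpressing Unpaired (Upd), the secreted ligand of the JAK-STAT pathway that keeps germline stem cells (GSC) and somatic cyst stem cells (CySC) of the testis in the stem cell state. In Nanos-Upd flies (2 libraries) a GAL4::VP16 driver with nanos sequences, active in the germline, drove UAS-Upd in a background with the alleles y[1] and w[1118] and the heat shock recombinase insertion P{hs70FLP}. In TrafficJam-Upd flies (2 libraries) a traffic jam GAL4 driver, active in cyst cells, drove UAS-Upd in a w[1118] background. Both genotypes also carried 1 copy of the reporter UAS-FRT-H3-GFP-FRT-H3-mKO, which adds tagged histone H3 under the same driver, and no library came from a normal testis. Tumor type therefore cannot be told apart from the y allele, from the recombinase insertion or from the cells in which the reporter was driven. The testes of several flies were pooled before dissociation, and the ages of the flies are not given in the labels.

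The table held 20618 cells. The authors had assigned 624 to the spermatocyte, 10889 to the GSC-like, 515 to the somatic, 329 to the muscle and 8261 to the CySC-like class, by a method not given in the sources used here. The Nanos-Upd libraries held 4615 and 9093 cells, and the TrafficJam-Upd libraries 3241 and 3669 cells. Library depth was 13190124 to 33499923 UMIs, and the 20 sums of class and library each held between 60 and 5568 cells. A level is given in CPM, the UMIs of a gene per 1000000 UMIs of its class in a library, and libraries, not cells, are the replicates. Nothing in the labels says whether replicates came from separate crosses, so p-values measure the spread between these libraries only. Fewer cells of a subtype in a class and less RNA per cell cannot be told apart in such sums. Summed early germline markers (8 genes such as vas and nos) averaged 1497 ± 183 CPM in the GSC-like and 177 ± 56.2 CPM in the CySC-like class (SD, n = 4 libraries). Cyst lineage markers (8 genes such as tj and zfh1) averaged 215 ± 86.5 CPM in the GSC-like and 3511 ± 745 CPM in the CySC-like class. Spermatocyte-labelled cells held 13250 ± 4123 CPM of spermatid markers (6 of 8 genes in the table) beside 201 ± 33.03 CPM of spermatocyte markers. In GSC-like cells the same sums averaged 254 ± 155 and 68.8 ± 12.1 CPM. The sums hold different genes, so their sizes do not tell spermatocytes from spermatids. The label is used below only as the authors' name for the class. Across libraries 35 barcodes occurred more than once.

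In the nucleosome, canonical histones made in S phase can be replaced by variants that are made and deposited throughout the cell cycle. H2A.V, encoded by His2Av, is the H2A variant of the fly and serves both in transcription and in the DNA damage response. H3.3, encoded by His3.3A and His3.3B as the same protein, is placed into active and newly opened chromatin. BigH1 is the linker histone of the early embryo, where somatic H1 takes its place later, and is also found in the germline. The HIRA complex, built from Hira and Yemanuclein (yem), deposits H3.3 and is known for assembling paternal chromatin after fertilization. XNP is the fly homolog of the ATRX remodeler and also acts in H3.3 placement. Asf1 hands newly made H3-H4 to both routes. Chromatin assembly factor 1 (CAF-1), with the subunits Caf1-180 and Caf1-105, deposits H3-H4 behind the replication fork. In the male germline stem cell, old canonical H3 is known to be retained in the stem cell at division.

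The genes lie apart from each other in the dm6 genome, by Ensembl release 115. His2Av is at 3R:26866929-26869220, BigH1 at 3R:14663450-14664822, XNP at 3R:25477868-25482834 and yem at 3R:29118330-29122879, all on the right arm of chromosome 3. His3.3B is at X:9152523-9156669, Caf1-180 at X:8602137-8606304 and Hira at X:7722119-7725917, all on the X chromosome. His3.3A is at 2L:5055058-5056149, asf1 at 3L:19618894-19620398 and Caf1-105 at 2R:10466001-10468540. On the opposite strand, His3.3A overlaps Nepl3 over 168 bases and yem overlaps Atg14 over 61 bases. How the counting used strand, and how it treated reads that fit both H3.3 genes, is not given in the sources used here, so the counts of these 3 genes are uncertain to that extent. The canonical histone genes gave almost no counts in these libraries of polyadenylated transcripts: over all GSC-like cells, 20 His2A and 23 His3 genes had 0 UMIs, 22 His4 genes had 3, 23 His2B genes had 31 and 23 genes of the linker histone His1 had 243. A supply of canonical H3 therefore cannot be set beside the variants here, and the comparisons below concern the replacement histones and the chaperones.

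All of the genes had UMIs in every class, and GSC-like cells held the highest level in 4 of 4 libraries for 9 of the 10 genes. Hira was highest in GSC-like cells in 3 of 4 libraries and in somatic cells in the other. Below the GSC-like class, most neighbouring classes in the order of mean levels overlapped between libraries. The exceptions were BigH1, whose 4 values in the spermatocyte class lay above all 4 in CySC-like cells, and the steps from the GSC-like class to the next. For His3.3B, Hira and Caf1-105 even the first step overlapped.

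**Figure D1:**
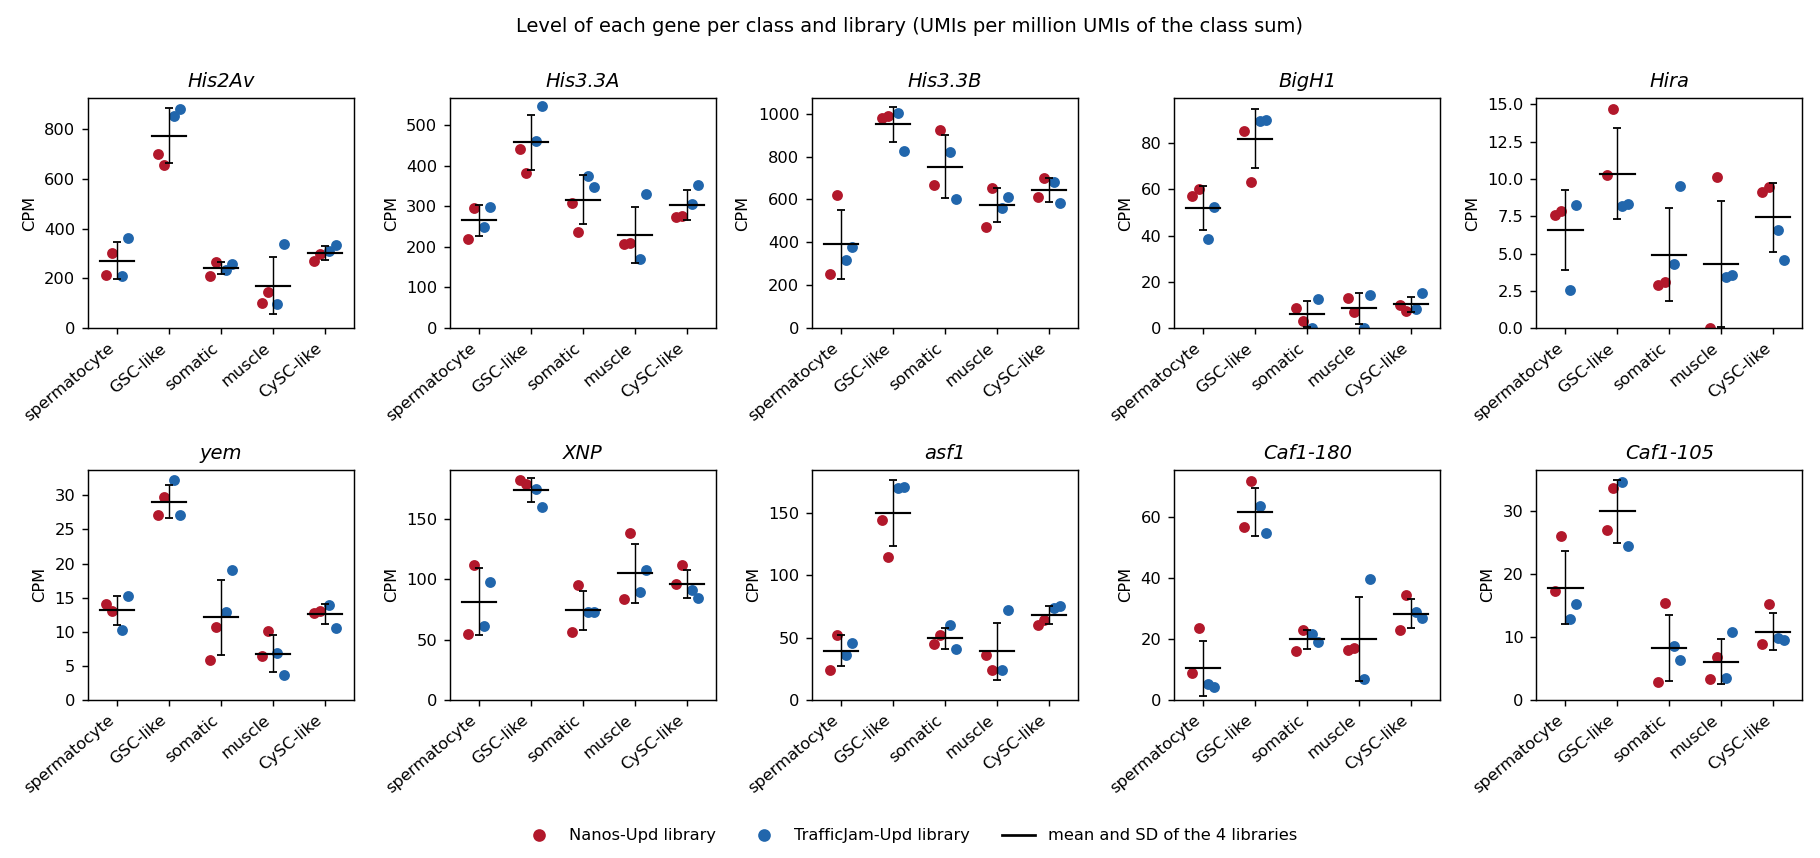
Level of each gene in CPM (y axis, linear, from 0) by class (x axis), 1 point per library, coloured by tumor type; the line and bar are the mean and SD of 4 libraries. GSC-like cells stand highest for every gene, with 772 ± 110.4 CPM of His2Av against 303 ± 28.1 CPM in CySC-like cells, and BigH1 is at 52.01 ± 9.61 CPM in the spermatocyte and 81.99 ± 12.7 CPM in the GSC-like class but at or under 15.02 CPM in the somatic, muscle and CySC-like classes.

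Between the stem cell classes, 9 of the 10 genes were higher in GSC-like cells and 1, Hira, did not pass the test (edgeR's quasi-likelihood test on class sums within libraries, Benjamini-Hochberg adjusted p under 0.05 over 8909 genes). BigH1 stood out with a log2 fold change of 2.71 ± 0.13 (SE), followed by the CAF-1 subunit Caf1-105 at 1.14 ± 0.12 and H2A.V at 1.03 ± 0.08. Of the 9 genes called, the H3.3 genes changed least, by 0.28 ± 0.08 and 0.25 ± 0.07. Of all genes tested, 35.1% were called higher in GSC-like cells and 37.4% lower, so a call alone sets no gene apart here. The median log2 fold change was 0.81 over the 10 genes and -0.06 over all genes tested. The libraries of the classes did not overlap for 9 of the 10 genes, as for 55.4% of all genes tested. Fold changes were scaled by TMM, a factor that centres most genes. With total UMIs only, as in CPM, the median of all genes was 0.26, the calls split into 4291 higher and 2213 lower in place of 3128 and 3336, and the fold changes of the 10 genes were larger by a like amount.

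His2Av measured 699 and 656 CPM in Nanos-Upd and 852 and 879.8 CPM in TrafficJam-Upd for GSC-like cells, against 268 and 297 CPM in Nanos-Upd and 309.6 and 336 CPM in TrafficJam-Upd for CySC-like cells. The lowest GSC-like library was still well above the highest CySC-like one, and the log2 fold change was 1.03 ± 0.08 (adjusted p = 7.34e-07). For BigH1 the same libraries gave 85.2 and 63.2 CPM in Nanos-Upd and 89.4 and 90.2 CPM in TrafficJam-Upd in the GSC-like class, against 10.1 and 7.51 CPM in Nanos-Upd and 8.39 and 15.02 CPM in TrafficJam-Upd in the CySC-like class. The 4 CySC-like values stood at 11.9%, 11.9%, 9.38% and 16.7% of the GSC-like level of the same library. The summed early germline markers stood in CySC-like cells at 10.8%, 14.8%, 6.92% and 15.3% of their GSC-like level, and were 111 to 245 CPM there against 1246 to 1658 CPM in GSC-like cells, with 0 of the 8 markers at 0. Without cells that held markers of both lineages the log2 fold change of BigH1 was 3.00. The part of free germline RNA in the CySC-like counts was not tested. The adjusted p of BigH1 was 1.74e-08.

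The H3.3 genes were abundant in both classes, and the size of their difference depended on the scaling. The log2 fold change was 0.28 for His3.3A and 0.25 for His3.3B with TMM. With total UMIs only, as in CPM, it was 0.59 and 0.56. His3.3A reached 440 and 382 CPM in Nanos-Upd and 459 and 546 CPM in TrafficJam-Upd in the GSC-like class, against 274 and 276 CPM in Nanos-Upd and 305 and 353 CPM in TrafficJam-Upd in the CySC-like class. His3.3B reached 978 and 989 CPM in Nanos-Upd and 1004 and 828 CPM in TrafficJam-Upd in the GSC-like class, against 611 and 699.7 CPM in Nanos-Upd and 682 and 582 CPM in TrafficJam-Upd in the CySC-like class. Neither gene's classes overlapped, and the adjusted p was 0.00665 for His3.3A and 0.00632 for His3.3B. Without the library as a block both calls were lost (adjusted p = 0.251 and 0.115). Summed over both genes, H3.3 averaged 1407 ± 43.6 CPM in the GSC-like and 945 ± 46.7 CPM in the CySC-like class (SD, n = 4). The ratio of His2Av to H3.3 UMIs was 0.493, 0.479, 0.582 and 0.6402 in the GSC-like sums of the 4 libraries, against 0.303, 0.304, 0.314 and 0.359 in the CySC-like sums, without overlap.

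Among the factors that place H3.3, Hira was scarce and did not separate the classes. It gave 10.2 and 14.7 CPM in Nanos-Upd and 8.21 and 8.31 CPM in TrafficJam-Upd for GSC-like cells, against 9.14 and 9.46 CPM in Nanos-Upd and 6.59 and 4.55 CPM in TrafficJam-Upd for CySC-like cells, and the ranges overlapped (log2 fold change 0.17 ± 0.18, adjusted p = 0.414). Hira was higher in the GSC-like class within 4 of 4 libraries, and passed the test only when scaled by total UMIs (log2 fold change 0.49, adjusted p = 0.0222). Its partner yem gave 27.1 and 29.8 CPM in Nanos-Upd and 32.3 and 27.1 CPM in TrafficJam-Upd in GSC-like cells, against 12.7 and 12.98 CPM in Nanos-Upd and 13.9 and 10.5 CPM in TrafficJam-Upd in CySC-like cells, more than the spread between libraries (log2 fold change 0.90 ± 0.11, adjusted p = 3.27e-05). XNP gave 183 and 179.7 CPM in Nanos-Upd and 176 and 160.1 CPM in TrafficJam-Upd in GSC-like cells, against 96.3 and 112 CPM in Nanos-Upd and 91.2 and 84.4 CPM in TrafficJam-Upd in CySC-like cells. The XNP values were close together within each class and did not overlap, with a log2 fold change of 0.55 ± 0.08 (adjusted p = 0.000108).

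Asf1 and the CAF-1 subunits Caf1-180 and Caf1-105 were higher in GSC-like cells. Asf1, the donor of H3-H4 to both routes, was at 144 and 114 CPM in Nanos-Upd and 170.1 and 171 CPM in TrafficJam-Upd for GSC-like cells, against 59.7 and 63.7 CPM in Nanos-Upd and 73.8 and 75.1 CPM in TrafficJam-Upd for CySC-like cells (log2 fold change 0.81 ± 0.09, adjusted p = 9.32e-06). Caf1-180, the large CAF-1 subunit, was at 56.6 and 71.9 CPM in Nanos-Upd and 63.7 and 54.6 CPM in TrafficJam-Upd in GSC-like cells, against 23.02 and 34.2 CPM in Nanos-Upd and 28.9 and 26.9 CPM in TrafficJam-Upd in CySC-like cells (log2 fold change 0.82 ± 0.09, adjusted p = 9.68e-06). Caf1-105 was at 27.1 and 33.7 CPM in Nanos-Upd and 34.6 and 24.4 CPM in TrafficJam-Upd in the GSC-like class, against 8.81 and 15.2 CPM in Nanos-Upd and 9.89 and 9.49 CPM in TrafficJam-Upd in the CySC-like class (log2 fold change 1.14 ± 0.12, adjusted p = 9.68e-06). None of these 3 genes overlapped between the classes, although the CySC-like value of Caf1-105 in Nanos-Upd replicate 2 lay above the other CySC-like ones. Leaving out each library in turn, or the 16.5% of GSC-like cells and 10.6% of CySC-like cells that held at least 2 germline and 2 cyst markers, kept 9 calls each time.

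**Figure D2:**
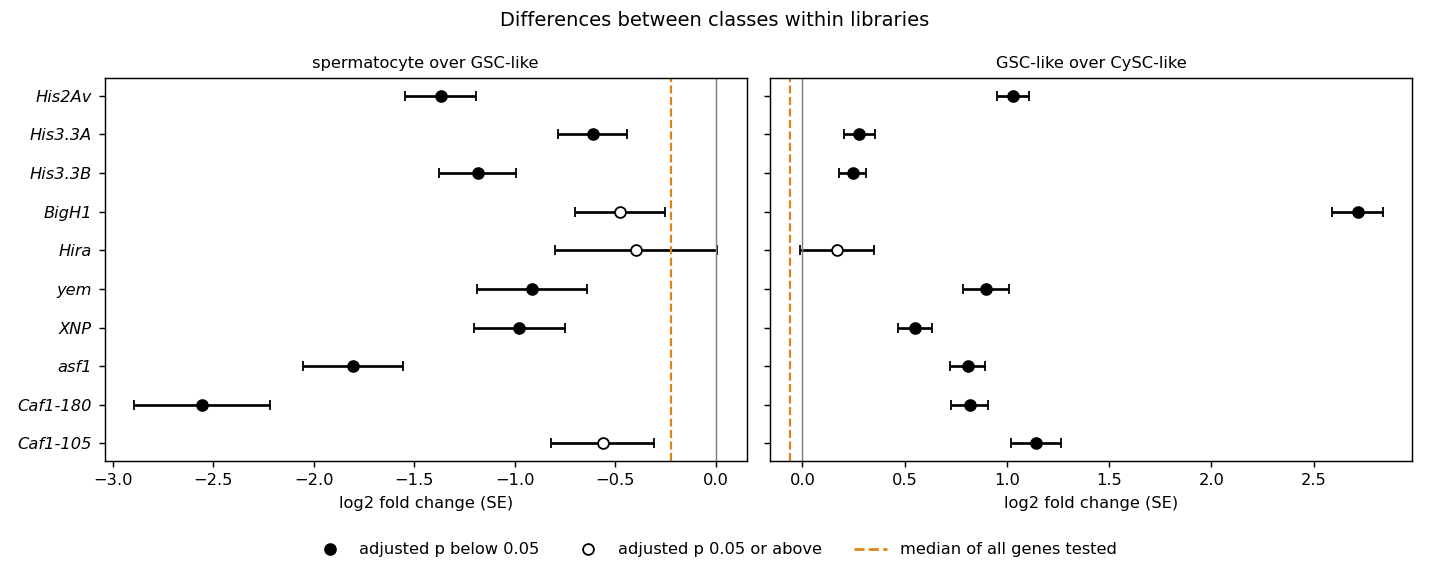
Log2 fold change with SE (x axis) of each gene between the spermatocyte and GSC-like classes (left) and the GSC-like and CySC-like classes (right); filled points have an adjusted p under 0.05 and the dashed line is the median of all genes tested. Points lie left of 0 for all 10 genes in the left panel, down to -2.56 for Caf1-180, and right of 0 in the right panel, up to 2.71 for BigH1.

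In the class labelled spermatocyte, 7 of the 10 genes were lower than in GSC-like cells, 0 were higher, and BigH1, Hira and Caf1-105 did not pass the test (edgeR's quasi-likelihood test within libraries, adjusted over 9079 genes). Of all genes tested, 32.6% were called lower and 33.2% higher. The median log2 fold change was -0.95 over the 10 genes and -0.22 over all genes tested (-0.39 with total UMIs only). The lowest values were those of Caf1-180, at -2.56 ± 0.34, and asf1, at -1.80 ± 0.25 on the log2 scale. These sums were small, from 94 to 249 cells, and the spermatid markers that set the class apart were 7839 to 17170 CPM there against 121 to 473 CPM in GSC-like cells, with 0 of 6 at 0. How far that load of spermatid marker transcripts lowers the share of other genes was not tested.

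Caf1-180 had only 8, 9, 2 and 3 UMIs in the 4 spermatocyte sums, which is 8.64 and 23.5 CPM in Nanos-Upd and 5.12 and 4.13 CPM in TrafficJam-Upd, against 56.6, 71.9, 63.7 and 54.6 CPM in the GSC-like sums of the same libraries. Even the upper 95% counting limits of the spermatocyte values, 17.02, 44.6, 18.5 and 12.1 CPM (exact Poisson, counting error only), lay below every GSC-like value (adjusted p = 0.000123). Its partner Caf1-105 was at 17.3 and 26.1 CPM in Nanos-Upd and 12.8 and 15.2 CPM in TrafficJam-Upd in the spermatocyte class, against 27.1, 33.7, 34.6 and 24.4 CPM in the GSC-like class. It was lower within 4 of 4 libraries, but the ranges overlapped and the log2 fold change of -0.56 ± 0.25 had an adjusted p of 0.0762. Under 4 of the alternatives it did pass, with adjusted p between 0.00831 and 0.0484. For asf1 the spermatocyte sums gave 23.8 and 52.2 CPM in Nanos-Upd and 35.9 and 45.5 CPM in TrafficJam-Upd, against 144, 114, 170.1 and 171 CPM in the GSC-like sums, with no overlap (adjusted p = 0.000160).

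The nucleosomal variants were lower as well. His2Av was at 212 and 300.2 CPM in Nanos-Upd and 207 and 362 CPM in TrafficJam-Upd in the spermatocyte class, against 699, 656, 852 and 879.8 CPM in the GSC-like class (log2 fold change -1.37 ± 0.18, adjusted p = 0.000103). His3.3B was at 252 and 621 CPM in Nanos-Upd and 318 and 376 CPM in TrafficJam-Upd in the spermatocyte class, against 978, 989, 1004 and 828 CPM in the GSC-like class (log2 fold change -1.18 ± 0.19, adjusted p = 0.000494). The spermatocyte class held the lowest His3.3B level of all 5 classes in 4 of 4 libraries. His3.3A, with a smaller change, was at 220.3 and 295 CPM in Nanos-Upd and 248 and 299 CPM in TrafficJam-Upd in the spermatocyte class, against 440, 382, 459 and 546 CPM in the GSC-like class (log2 fold change -0.61 ± 0.17, adjusted p = 0.01096).

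BigH1 did not pass the test. It was at 57.2 and 60.04 CPM in Nanos-Upd and 38.4 and 52.4 CPM in TrafficJam-Upd in the spermatocyte class, against 85.2, 63.2, 89.4 and 90.2 CPM in the GSC-like class, without overlap but with a log2 fold change of -0.48 ± 0.22 (adjusted p = 0.08599). The call was gained with total UMIs only (adjusted p = 0.0441), without the filter on low counts (0.007285) and without Nanos-Upd replicate 2 (0.0278). BigH1 in the spermatocyte class stood at 67.2%, 95.04%, 42.9% and 58.1% of the GSC-like level of the same library, while the summed early germline markers stood at 22.5%, 40.8%, 18.5% and 32.4%. BigH1 lay above the markers in 4 of 4 libraries. No test was made of that difference.

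Of the H3.3 placement factors, yem was at 14.04 and 13.1 CPM in Nanos-Upd and 10.2 and 15.2 CPM in TrafficJam-Upd in the spermatocyte class, against 27.1, 29.8, 32.3 and 27.1 CPM in the GSC-like class (log2 fold change -0.91 ± 0.27, adjusted p = 0.0146). XNP was at 55.1 and 112 CPM in Nanos-Upd and 61.5 and 97.8 CPM in TrafficJam-Upd in the spermatocyte class, against 183, 179.7, 176 and 160.1 CPM in the GSC-like class (log2 fold change -0.98 ± 0.23, adjusted p = 0.004204). Both were lower without overlap, but yem rested on 13, 5, 4 and 11 UMIs in the 4 spermatocyte sums. Its upper 95% counting limits there were 24, 30.5, 26.2 and 27.1 CPM (exact Poisson, counting error only). The limit of 30.5 CPM, in Nanos-Upd replicate 2, lay above the lowest GSC-like value. Between these classes the libraries did not overlap for 8 of the 10 genes, as for 60.8% of all genes tested. Hira rested on 17 UMIs in the whole spermatocyte class and was at 7.56 and 7.83 CPM in Nanos-Upd and 2.56 and 8.27 CPM in TrafficJam-Upd, against 10.2, 14.7, 8.21 and 8.31 CPM in GSC-like cells. That difference was not detectable at this depth (log2 fold change -0.40 ± 0.40, adjusted p = 0.404).

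The ratio of the CAF-1 subunits Caf1-180 and Caf1-105 was lower in the spermatocyte class of these libraries, on few UMIs. Within each library the ratio of Caf1-180 to Caf1-105 UMIs was 0.500, 0.900, 0.400 and 0.273 in the spermatocyte class, against 2.09, 2.14, 1.84 and 2.23 in the GSC-like class. In CySC-like cells it was 2.61, 2.25, 2.92 and 2.83. The spermatocyte ratios rest on 8, 9, 2 and 3 UMIs of Caf1-180 and 16, 10, 5 and 11 UMIs of Caf1-105. The spermatocyte ratio was below 1 in 4 of 4 libraries and below every other class's range, while the GSC-like ratios kept within 1.84 to 2.23. The mean log2 difference of the ratio, spermatocyte minus GSC-like, was -2.14 ± 0.73 (SD, n = 4), lower in 4 of 4 libraries. Flipping signs over the 4 libraries, an exact permutation test (two-sided) gave p = 0.125, the smallest this design allows (0.15 after Benjamini-Hochberg adjustment over 6 ratio comparisons). The ratio is free of the scaling between classes, since both genes are divided by the same total.

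His3.3B to His3.3A UMIs stood at 1.14, 2.11, 1.28 and 1.26 in the spermatocyte class, against 2.22, 2.59, 2.19 and 1.51 in the GSC-like class. The log2 difference of the ratio was -0.58 ± 0.35 (SD, n = 4, lower in 4 of 4 libraries, exact sign-flip permutation p = 0.125). Between GSC-like and CySC-like cells that ratio differed by only -0.03 ± 0.06 on the log2 scale (lower in 3 of 4 libraries, exact permutation p = 0.375). Nanos-Upd replicate 2 had the highest His3.3B to His3.3A ratio in the spermatocyte, GSC-like, somatic and CySC-like classes. His2Av to H3.3 was higher in GSC-like than in CySC-like cells by 0.77 ± 0.11 on the log2 scale (4 of 4 libraries, exact permutation p = 0.125), and lower in the spermatocyte than in the GSC-like class by a difference of -0.40 ± 0.25 (4 of 4 libraries, p = 0.125).

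**Figure D3:**
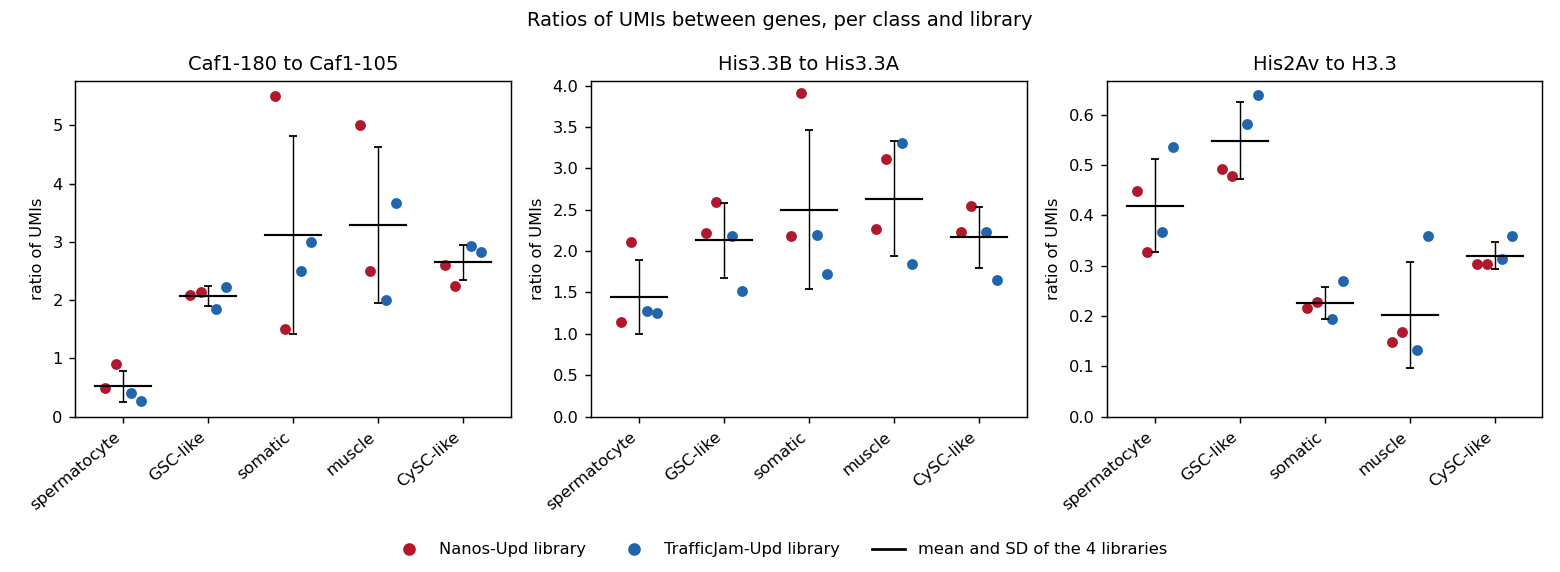
Ratio of UMIs between genes (y axis, linear, from 0) by class (x axis), 1 point per library, with the mean and SD of 4 libraries. The ratio of Caf1-180 to Caf1-105 averages 0.518 ± 0.271 in the spermatocyte class and 2.08 ± 0.168 in the GSC-like class, and the ratio of His2Av to both H3.3 genes averages 0.549 ± 0.0762 in the GSC-like and 0.3201 ± 0.0266 in the CySC-like class.

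Somatic and muscle cells were set against CySC-like cells, the other somatic class. Cyst lineage markers averaged 1484 ± 343.5 CPM in the somatic class, against 3511 ± 745 CPM in CySC-like cells (SD, n = 4). In Nanos-Upd replicate 1 the somatic class also held 998 CPM of fat body and 287 CPM of hemocyte markers. The other libraries held at most 50.7 and 34.3 CPM of these, so the class was mixed. In the somatic class 0 of the 10 genes passed the test (edgeR's quasi-likelihood test, 1 at an unadjusted p under 0.05), where 24.9% of 7838 genes did in either direction. Of the 7838 genes, 2743 had an unadjusted p under 0.05. His3.3B came closest, at 669 and 923 CPM in Nanos-Upd and 819 and 602 CPM in TrafficJam-Upd in somatic cells, against 611, 699.7, 682 and 582 CPM in CySC-like cells. It was higher within 4 of 4 libraries (log2 fold change 0.30 ± 0.11, adjusted p = 0.0527) and passed with RLE size factors (0.0499) and in cells of at least 3000 UMIs (0.0315). His2Av passed without the filter on low counts (log2 fold change -0.39, adjusted p = 0.0279). The 9 genes other than His3.3B had log2 fold changes between -0.74 (Hira) and 0.14 (His3.3A). BigH1 had 0 UMIs in the somatic and muscle sums of TrafficJam-Upd replicate 1, where the floor of 3 counts is 12.9 CPM in the somatic sum and the exact Poisson upper 95% limit 15.8 CPM.

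In the muscle class 1 gene, His2Av, was lower than in CySC-like cells, where 28.2% of 7526 genes were called in either direction (1126 higher and 996 lower, or 925 and 1533 with total UMIs only). It was at 100.3 and 146 CPM in Nanos-Upd and 96.7 and 338 CPM in TrafficJam-Upd in muscle cells, against 268, 297, 309.6 and 336 CPM in CySC-like cells (log2 fold change -0.77 ± 0.21, adjusted p = 0.00771). The classes overlapped, since TrafficJam-Upd replicate 2 was high in muscle cells, and the call was lost without Nanos-Upd replicate 1 (adjusted p = 0.0609) or replicate 2 (0.0738), in cells of at least 3000 UMIs (0.0651) and without the library block (0.175). Asf1 was at 35.6 and 23.7 CPM in Nanos-Upd and 24.2 and 71.8 CPM in TrafficJam-Upd in muscle cells, against 59.7, 63.7, 73.8 and 75.1 CPM in CySC-like cells, lower in 4 of 4 libraries with an adjusted p of 0.0596. It passed with total UMIs only (0.0193), without the filter on low counts (0.00963), without cells that held markers of both lineages (0.0476) and without TrafficJam-Upd replicate 2 (0.00440), the library in which His2Av and asf1 stood highest in muscle cells and in which the summed early germline markers of the muscle class were 28.5% of the GSC-like level, against 8.83% to 19.0% in the other libraries. The part of germline RNA in those values was not tested.

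Between tumor types, 0 of the genes passed the test in any class. In GSC-like cells 0 of 10 were called, against 3.12% of 9466 genes, and in CySC-like cells 0 of 10, against 2.84% of 8701 genes. An unadjusted p under 0.05 was reached by 4 of the 10 in GSC-like cells, beside 2443 of the 9466 genes. In CySC-like cells it was reached by 3 of the 10, beside 2386 of the 8701 genes. In spermatocyte cells 6 of the 10 genes could be tested, in somatic cells 6 and in muscle cells 5, with 0 called and 0 at an unadjusted p under 0.05 in each. Over all genes 0.669% were called in the spermatocyte, 0.184% in the somatic and 0% in the muscle class. The unadjusted p was under 0.05 for 360 of 6276, 649 of 4897 and 259 of 3361 genes in these classes. Calls over all genes were 194 higher and 101 lower in Nanos-Upd GSC-like cells, and 137 and 110 in CySC-like cells. With total UMIs only they were 341 and 61 in the GSC-like and 213 and 44 in the CySC-like class, and the median of all genes was 0.21 and 0.18 in place of 0.05 and 0.02. With 2 libraries per tumor type, only the fit across all genes can reach the threshold: an exact permutation test of 2 against 2 libraries cannot go below 0.333.

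The genes nearest to a call in GSC-like cells were lower in Nanos-Upd tumors. Asf1 averaged 129 ± 21.2 CPM in Nanos-Upd and 170.5 ± 0.493 CPM in TrafficJam-Upd GSC-like cells (SD, n = 2 each), a log2 fold change of -0.55 ± 0.20 (edgeR adjusted p = 0.107). His2Av averaged 678 ± 30.4 CPM in Nanos-Upd and 866 ± 19.9 CPM in TrafficJam-Upd GSC-like cells (-0.51 ± 0.19, adjusted p = 0.115). Neither gene's tumor types overlapped, as was so for 59.7% of all genes tested. DESeq2 called His2Av (adjusted p = 0.0484). His3.3A differed by -0.45 ± 0.21, BigH1 by -0.43 ± 0.20 and Hira, the 1 gene with a positive value, by 0.44 ± 0.32. The other 5 genes lay between -0.21 (yem) and -0.03 (Caf1-180), and 4 of these, His3.3B, XNP, Caf1-180 and Caf1-105, had a positive value with total UMIs only.

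In CySC-like cells the same libraries gave asf1 61.7 ± 2.81 CPM in Nanos-Upd and 74.5 ± 0.885 CPM in TrafficJam-Upd (SD, n = 2 each), a log2 fold change of -0.43 ± 0.13 (adjusted p = 0.09295). His3.3A averaged 275 ± 1.39 CPM in Nanos-Upd and 329 ± 33.6 CPM in TrafficJam-Upd (-0.42 ± 0.13, adjusted p = 0.0964), and His2Av 282 ± 19.97 CPM in Nanos-Upd and 323 ± 18.5 CPM in TrafficJam-Upd (-0.35 ± 0.12, adjusted p = 0.113). Without the filter on low counts, His3.3A (0.01997) and asf1 (0.0415) passed. The remaining genes lay between -0.57 (BigH1) and 0.58 (Hira). GSC-like and CySC-like values come from the same 4 libraries, so they are not independent of each other.

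Whether the step from CySC-like to GSC-like cells depended on the tumor type was tested as an interaction. Of the 10 genes 0 passed (0 at an unadjusted p under 0.05, lowest adjusted p 0.772), against 1.35% of 9787 genes (77 positive and 55 negative, or 79 and 34 with total UMIs only). Of the 9787 genes, 900 had an unadjusted p under 0.05. The interaction, Nanos-Upd minus TrafficJam-Upd on the log2 scale, ran from -0.34 ± 0.25 (Caf1-105) to 0.01 ± 0.20 (Caf1-180). Its size for BigH1 was 0.01 ± 0.23, beside a class difference of 2.71.

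**Figure D4:**
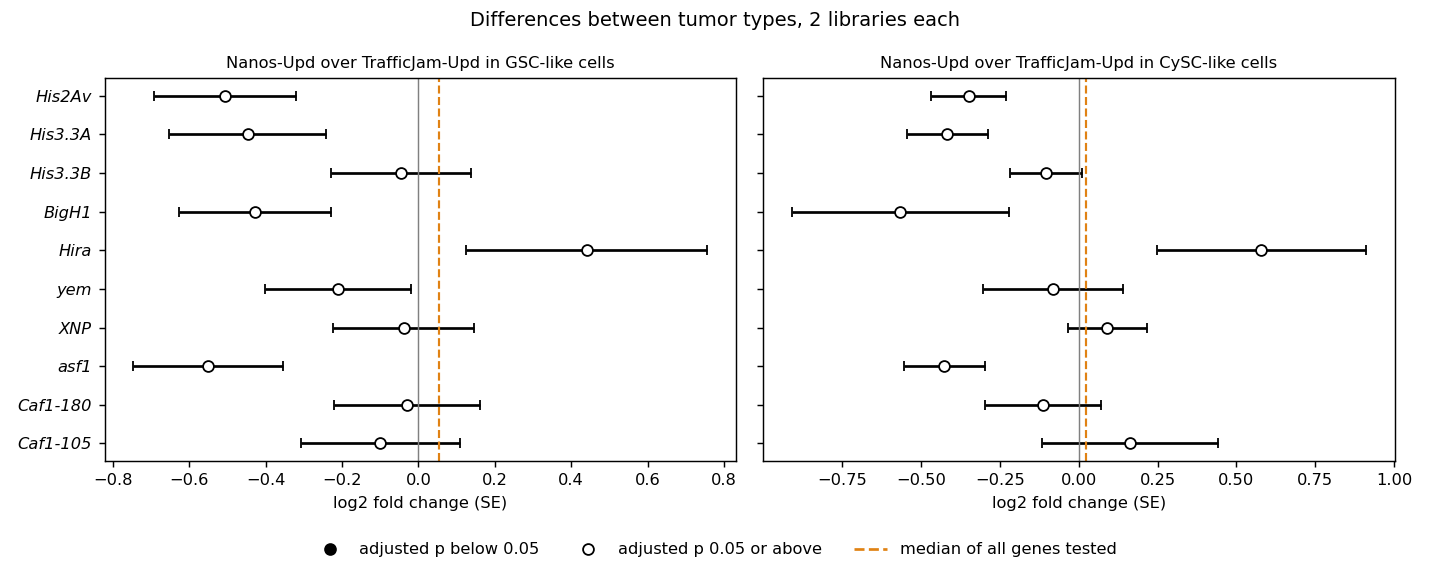
Log2 fold change with SE (x axis), Nanos-Upd over TrafficJam-Upd, in GSC-like (left) and CySC-like cells (right), 2 libraries per tumor type; open points have an adjusted p of 0.05 or above and the dashed line is the median of all genes tested. All points are open; asf1 lies at -0.55 in the GSC-like and -0.43 in the CySC-like class, and Hira at 0.44 and 0.58.

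Other genes of the same pathways were read from lists that hold none of the 10. Of 14 other H3-H4 and general chaperones, 10 were higher and 1 was lower in GSC-like than in CySC-like cells (median log2 fold change 0.35, against -0.06 over all genes, of which 35.1% were called higher and 37.4% lower). The FACT subunits Ssrp (1.25 ± 0.09) and dre4 (1.17 ± 0.08), which move histones ahead of polymerases, rose most, followed by Mcm2 (0.91 ± 0.10), a helicase subunit that also binds H3-H4. CG8223, the fly counterpart of the histone chaperone NASP, was lower (-1.22 ± 0.08), with 55.4 CPM in the GSC-like and 103 CPM in the CySC-like class. In the spermatocyte class 13 of these 14 were lower and 0 higher than in GSC-like cells (median -1.46, against -0.22 over all genes, of which 32.6% were called lower and 33.2% higher), led by Dek (-1.62 ± 0.20), P32 (-1.53 ± 0.22) and dre4 (-1.52 ± 0.20). Caf1-55, the CAF-1 subunit shared with other chromatin complexes, was 0.42 ± 0.08 in GSC-like over CySC-like and -1.49 ± 0.20 in spermatocyte over GSC-like cells.

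The Domino and Tip60 complexes exchange H2A.V. Of 16 subunits, 12 were higher and 1 was lower in GSC-like than in CySC-like cells (median 0.44), beside the same 35.1% and 37.4% of all genes. Gas41 (0.77 ± 0.11) and the ATPases pont (0.73 ± 0.09) and rept (0.71 ± 0.09) rose most, and Arp6 was lower (-0.76 ± 0.10). In the spermatocyte class 9 were lower and 1 was higher than in GSC-like cells (median -0.68), beside 32.6% and 33.2% of all genes. The swap ATPase dom (-1.44 ± 0.20), Gas41 (-1.37 ± 0.28) and Bap55 (-1.36 ± 0.26) were lowest, while Ing3, a reader subunit, was higher (1.502 ± 0.33), at 37.0 CPM in the spermatocyte and 14.7 CPM in the GSC-like class. Pont and rept did not pass there (-0.26 ± 0.19 and -0.15 ± 0.22).

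The centromeric genes cid, which encodes the H3 variant of the centromere, its loader cal1 and Cenp-C were 3 of 3 higher in GSC-like than in CySC-like cells, at 1.07 ± 0.11, 1.07 ± 0.10 and 1.05 ± 0.11. Between the spermatocyte and GSC-like classes, 1 of these 3, Cenp-C, was lower (-0.97 ± 0.25). Over all genes, 35.1% were called higher and 37.4% lower in GSC-like than in CySC-like cells. For the spermatocyte over the GSC-like class the shares were 33.2% higher and 32.6% lower. Of 7 factors of the histone locus body and of histone mRNA processing, 6 were higher and 1 was lower in GSC-like than in CySC-like cells (median 1.01). Lsm10 (1.29 ± 0.11), mute (1.17 ± 0.12) and Slbp (1.04 ± 0.09), the stem-loop binding protein of histone mRNA, rose most, and Lsm11 was lower (-1.27 ± 0.21) at 3.26 CPM in the GSC-like and 6.38 CPM in the CySC-like class. In the spermatocyte class 4 of 6 tested were lower and 0 higher (median -1.09), led by mxc (-2.01 ± 0.32), the scaffold of that body.

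Of 8 S phase genes, 8 were higher in GSC-like than in CySC-like cells (median 0.85), with Orc1 at 1.39 ± 0.13, CycE at 1.31 ± 0.12 and Mcm5 at 1.06 ± 0.11. All 8 were lower in the spermatocyte than in the GSC-like class (median -1.47), with CycE at -2.07 ± 0.24 and Orc1 at -1.97 ± 0.36. The shares over all genes were again 35.1% higher and 37.4% lower for GSC-like over CySC-like cells. They were 33.2% higher and 32.6% lower for spermatocyte over GSC-like cells. The part of cell cycle composition in the values of asf1, Caf1-180 and Caf1-105 was not tested. The sperm chromatin genes, which encode the packaging proteins that replace histones, went the other way. Of 6, 4 were in the table. All 4 were higher in the spermatocyte than in the GSC-like class (median 6.03), such as Mst77F (6.02 ± 0.47) and tHMG2 (6.21 ± 0.35). Mst77F is also among the spermatid markers summed above, so its value is not separate from that sum. In GSC-like cells 3 of these 4 were lower than in CySC-like cells (median -0.58), and 1 with total UMIs only. Levels there were low and spread widely between libraries. Mst77F averaged 36.3 ± 28.1 CPM in the GSC-like and 47.1 ± 32.3 CPM in the CySC-like class, against 1829 ± 595.5 CPM in the spermatocyte class (SD). The part of free spermatid RNA in the GSC-like and CySC-like values was not tested. Of 112 histone genes of the replication-dependent kind and His4r together, 2 had enough counts to be tested. His4r, a replacement H4 gene with polyadenylated transcripts, was lower in the GSC-like class, at 1788 ± 387 CPM, than in the CySC-like class, at 2208 ± 195 CPM (-0.64 ± 0.09), and lower in the spermatocyte than in the GSC-like class (-0.96 ± 0.13). Its GSC-like and CySC-like libraries overlapped, at 1278 to 2214 and 1966 to 2373 CPM. The fold change is scaled by TMM and the CPM is not. The other, the linker histone gene His1:CG33801, was higher in the GSC-like class, at 4.77 ± 0.794 CPM, than in the CySC-like class, at 0.717 ± 0.232 CPM (2.50 ± 0.33, adjusted p = 4.48e-05), and did not pass between the spermatocyte and GSC-like classes (-1.69 ± 0.79). Between tumor types, 0 of the list genes that could be tested passed edgeR's test, of 54 in GSC-like, 53 in CySC-like, 48 in spermatocyte, 35 in somatic and 27 in muscle cells, with 17, 13, 1, 3 and 2 at an unadjusted p under 0.05. Over all genes those unadjusted counts were 2443 of 9466, 2386 of 8701, 360 of 6276, 649 of 4897 and 259 of 3361. The centromeric genes could not be tested in somatic or muscle cells.

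**Figure D5:**
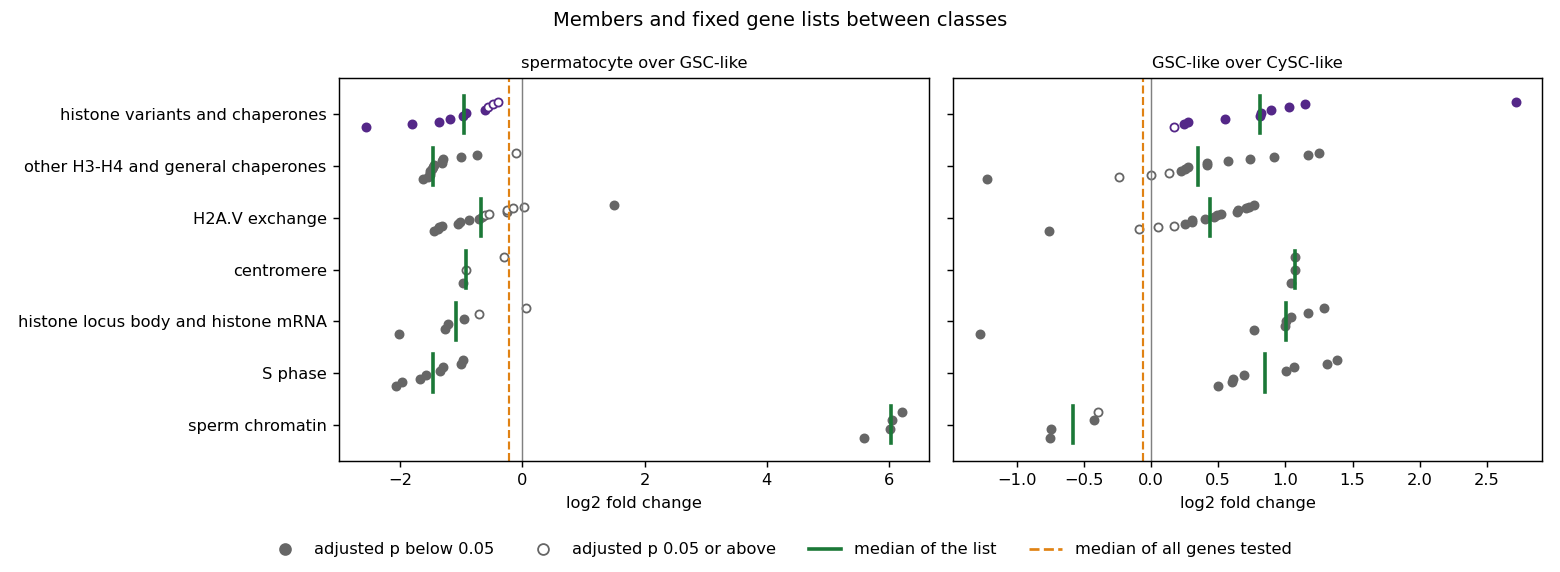
Log2 fold change (x axis) of each tested gene of the 10 and of 6 lists (rows) for spermatocyte over GSC-like (left) and GSC-like over CySC-like cells (right); filled points have an adjusted p under 0.05, green bars are list medians and the dashed line is the median of all genes tested. The sperm chromatin row has its median at 6.03 in the left panel, where the S phase row is at -1.47 and the 10 genes are at -0.95; in the right panel those rows are at -0.58, 0.85 and 0.81.

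Per cell, the genes ranged from nearly ubiquitous to rarely seen. After each cell was thinned to 2200 UMIs, a His3.3B UMI was found in 86.1% of GSC-like cells and 74.8% of CySC-like cells, means of 4 libraries (95.99% and 85.6% unthinned). For His2Av the thinned shares were 75.7% of GSC-like cells and 43.9% of CySC-like cells (89.1% and 55.7% unthinned). A BigH1 UMI was found in 9.95% of spermatocyte and 15.8% of GSC-like cells, against 1.12% of somatic, 1.85% of muscle and 2.14% of CySC-like cells. Whether the BigH1 UMIs in somatic, muscle and CySC-like cells came from free RNA was not tested, so the shares there are not read as expression. Unthinned BigH1 shares were 15.9% in spermatocyte, 27.4% in the GSC-like and 3.38% in the CySC-like class, with median depths per library of 3213 to 3940, 3531 to 5014 and 2868 to 3323 UMIs. Hira was found in 2.33% of GSC-like cells and 1.52% of CySC-like cells after thinning, and asf1 in 26.3% of the GSC-like and 13.5% of the CySC-like class. Caf1-180 was found in 2.24% of spermatocyte and 12.5% of GSC-like cells.

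Across the 20 sums of class and library, the genes with the most similar pattern to each of the 10 were sought among 3075 genes with a mean of at least 50 CPM, by Pearson's r of log2(CPM + 1). Sums of a library share cells' handling and depth, and classes recur in 4 libraries, so r is given as a description only. His2Av was most like SmE (r = 0.97) and Aos1 (0.97). His3.3A was most like U2A (0.92) and AIMP3 (0.92), and His3.3B like Jarid2 (0.95) and CtBP (0.95). BigH1 was most like nero (0.95) and CG17650 (0.92). XNP was most like Pp1-87B (0.94) and Dek (0.92), and asf1 like Bin1 (0.95) and eEF1delta (0.94). Caf1-180 was most like AlaRS (0.92) and CG1737 (0.92), and Caf1-105 like Iswi (0.93) and Rcc1 (0.92). Partners were weaker for Hira, with CG1234 (0.82) and CSN5 (0.78), and for yem, with ND-42 (0.86) and TfIIFalpha (0.86).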

How the data were processed

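Cells of 4 libraries from pooled testis tumors were sequenced singly with 10x Genomics 3' chemistry, per the labels. The authors deposited 1 table of raw UMI counts per gene and cell, and 1 annotation table with each cell's library and class. The deposited totals of UMIs equalled the summed counts in 20618 of 20618 cells, and cells ran from 2200 to 7499 UMIs, so a filter had been applied before deposit. The submitters' processing notes name Cell Ranger 7.0.0, Seurat 5.0.3 and the build dm6, without their roles. The mitochondrial and ribosomal percent columns, deposited by the authors, were not used beyond their range.

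Counts were summed per class and library (20 sums) and tested with edgeR 4.0.16 (TMM, filterByExpr, robust quasi-likelihood fit, R 4.3.3). Benjamini-Hochberg adjustment ran over all genes tested, and genes under 0.05 were called. Class comparisons had the library as a block, tumor types none. DESeq2 1.42.0, RLE size factors, total UMIs only, no filter, each library left out, at least 3000 UMIs per cell, no mixed cells and other blocks were alternatives. No doublet caller was run; mixed cells held UMIs of at least 2 early germline and 2 cyst lineage markers. Fits were tested on simulated counts. Ratios were computed in Python 3.11.15 (pandas 2.3.3, numpy 2.4.6, scipy 1.17.1) and plotted with matplotlib 3.10.9. All 10 genes were looked up in every comparison, but in the smaller classes not every gene is named above. Of each list, mainly the 3 called genes that changed most each way were named. Intervals and floors (3 counts for a count of 0) cover counting error only. Positions are those of Ensembl release 115 for dm6. The genes and lists were chosen with earlier results of these data known.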

Additional observations from a re-analysis of the deposited data

Results flagged for a closer look

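Over the 50 combinations of gene and class, 3 had 1 library far from the other 3 libraries of the class by Dixon's criterion, which chance alone meets in about 1 of 20 groups. His3.3B in GSC-like cells of TrafficJam-Upd replicate 2 was at 828 CPM, below the other libraries at 978 to 1004 CPM. The CySC-like value of Caf1-105 in Nanos-Upd replicate 2 was 15.2 CPM, above the others at 8.815 to 9.89 CPM. Hira in the spermatocyte class of TrafficJam-Upd replicate 1 was at 2.56 CPM, which is 1 UMI.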

How the results depend on the processing

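Counts of genes called in the class comparisons stayed within 1.5 times their value under every alternative run, as did the members called in GSC-like over CySC-like (7 to 10 against 9) and spermatocyte over GSC-like cells (7 to 9 against 7). In somatic over CySC-like cells the members called were 1 with RLE size factors, 1 without the filter on low counts and 1 with at least 3000 UMIs per cell, in place of 0. In muscle over CySC-like cells they were 2 with total UMIs only, 2 without the filter, 2 without mixed cells, 0 with at least 3000 UMIs, 0 without the library block and 0 to 2 with a library left out, in place of 1. Tumor type counts moved more. Genes called with DESeq2 were 528 in GSC-like, 527 in CySC-like, 12 in spermatocyte, 58 in somatic and 7 in muscle cells, and 54 for the interaction, in place of 295, 247, 42, 9, 0 and 132. Without the filter they were 1154 in GSC-like, 1494 in CySC-like, 69 in spermatocyte, 138 in somatic and 36 in muscle cells. With at least 3000 UMIs they were 147 in GSC-like cells and 68 for the interaction, without mixed cells 646 in GSC-like cells, 3 in muscle cells and 237 for the interaction, and with total UMIs only 2 in muscle cells. With a library left out they ran from 312 (without TrafficJam-Upd replicate 2) to 1490 (without Nanos-Upd replicate 2) in GSC-like and from 111 to 1264 (the same libraries) in CySC-like cells, from 4 to 103 in spermatocyte, 2 to 467 in somatic and 12 to 93 in muscle cells, and from 77 to 280 for the interaction. The members called between tumor types became 1 with DESeq2 in GSC-like cells, 2 without the filter in CySC-like cells and 0 to 1 with a library left out in muscle cells; the cause was not tested.

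With the replicate block the genes called were 552 in GSC-like, 163 in CySC-like, 79 in spermatocyte, 1 in somatic and 70 in muscle cells, and 0 of the 10 members were called in any class. The labels do not state that replicate numbers pair the libraries, so the main fits had no such block. Same-numbered libraries deviated from their group means with a correlation of -0.11 over the GSC-like sums and -0.14 over the CySC-like sums. With 2 libraries per tumor type, these correlations cannot decide whether the numbers pair. The block with numbers crossed was chosen after seeing the data. It called 2484, 718, 10 and 67 genes in GSC-like, CySC-like, spermatocyte and somatic cells and 4 members in GSC-like cells.

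Reversals concerned values that had not passed a test. Without the filter, His3.3A in somatic over CySC-like cells was -0.012 (log2). In muscle over CySC-like cells His3.3B was -0.17 with total UMIs only, -0.13 without the filter, -0.0056 without mixed cells and -0.085 to 0.070 with a library left out, and BigH1 was 0.038 without mixed cells and -0.44 to 0.21 with a library left out. Between tumor types with total UMIs only, His3.3B was 0.10, XNP 0.11, Caf1-180 0.12 and Caf1-105 0.050 in GSC-like cells, and His3.3B 0.054, yem 0.071 and Caf1-180 0.050 in CySC-like cells. With a library left out, Caf1-180 ran from -0.21 to 0.12 and Caf1-105 from -0.26 to 0.056 in GSC-like cells, and yem from -0.24 to 0.072, Caf1-180 from -0.41 to 0.094 and Caf1-105 from -0.27 to 0.45 in CySC-like cells. In somatic over CySC-like cells yem ran from -0.46 to 0.19. Hira, yem, BigH1, Caf1-180 and Caf1-105 had few UMIs in the smaller classes, which limits what could be detected there.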
